A study of Mus musculus with 568 samples.

Results

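The piRNA pathway genes described here were 10 genes of the mouse germ line: Piwil2, Mov10l1, Pld6, Tdrkh, Asz1, Tdrd1, Tdrd9, Tdrd12, Mael and Morc1. They were chosen by name for their known roles, but with earlier results of these data known, so the choice was not blind to the values. All 10 were found among the 16335 genes of the bulk expression values and among the 15718 genes of the single-cell counts. Bulk RNA came from 4 groups of 4 libraries, which were embryonic stem cells (ESCs), epiblast-like cells (EpiLCs), and primordial germ cell-like cells (PGCLCs) at day 5, sorted on the germ cell surface markers SSEA1 and CD61 and then into XGFP+ and XGFP- cells. Single cells came from reconstituted ovaries (rOvaries), in which sorted PGCLCs were grown for 6 days with E13.5 female gonadal somatic cells, which were not of this line and for which the methods of the study name CD1/ICR mice. All other cells of this report, ESCs and EpiLCs included, were of the XRep line, a female hybrid of 129S1/SvImJ and CAST/EiJ. In this line the musculus X chromosome holds the GFP reporter and a truncated Tsix, the castaneus X holds a tdTomato reporter, and all cells carry rtTA at Rosa26 with doxycycline-responsive transgenes of Prdm14, Blimp1 (Prdm1) and Tfap2c. Doxycycline was given to the PGCLC aggregates (1.5 µg/ml, 5 days) and not to ESCs or EpiLCs, so germ cell induction was driven by these transgenes and their own read counts include them. Loss of XGFP reports silencing of the musculus X, so that the XGFP+ and XGFP- sorts compare PGCLCs in which the reporter X was active with PGCLCs in which it was silenced. The rOvary populations were XGFP+ constitutive cells, from XGFP+ PGCLCs, and XGFPhigh, XGFPintermediate and XGFPlow cells, all 3 from XGFP- PGCLCs. In the rOvaries these names stand for the GFP signal at sorting and not for the activity of the X, which was not measured here.

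piRNAs are small RNAs of the germ line that guide PIWI proteins to transposon transcripts, which are then cut in the cytoplasm or silenced through DNA methylation in the nucleus. Long precursor transcripts are unwound by a helicase, cut at the surface of mitochondria, trimmed and loaded, and Tudor domain proteins hold the PIWI proteins in granules beside the mitochondria. In mice the pathway is best known from the fetal and adult testis, where loss of most of its members releases transposons and stops spermatogenesis, while the female germ line expresses many members but can do without most of them.

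Each bulk library held between 29.8 M and 46.5 M recovered reads. The labels give a library only a number from 1 to 4 and do not say which came from separate cultures or clones, so the p-values measure the spread between these libraries, which may be partly technical. The study describes the libraries of a group in one place as technical replicates of different clones and in another as biological replicates, and p-values over 4 libraries are too small if the former holds. Of 7 germ cell markers fixed as a check, 7 were higher in XGFP+ PGCLCs than in EpiLCs and 6 in XGFP- PGCLCs. These include Prdm1, Prdm14 and Tfap2c, whose counts hold the transgenes, so their rise is set by the induction and is no check. Of the others, Dppa3, Dnd1 and Nanos3 were higher in both sorts and Dazl in XGFP+ PGCLCs only. All 4 EpiLC markers were lower in both. Levels are normalized counts, that is, reads per gene divided by the size factor of the library, and are given as mean ± SD of 4 libraries. Differences are on the scale of log2(normalized count + 1), and a gene is called where the limma test adjusted by Benjamini-Hochberg over 16281 genes is below 0.001.

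Divided by transcript length, the levels of the members in XGFP+ PGCLCs covered a wide range. Morc1 (434 normalized counts per kb), Tdrd12 (417 per kb) and Piwil2 (341 per kb) led. Pld6, Mael and Mov10l1 followed at 115.1, 105 and 63.1 normalized counts per kb. The lowest levels per kb were those of Tdrkh at 24.9, Tdrd1 at 16.9, Asz1 at 16.5 and Tdrd9 at 5.66. The members did not peak together: 5 had their highest mean in XGFP+ PGCLCs (Piwil2, Tdrd9, Tdrd12, Asz1 and Pld6), 3 in EpiLCs (Mael, Tdrd1 and Mov10l1), 1 in ESCs (Morc1) and 1 in XGFP- PGCLCs (Tdrkh). The highest group passed the test against the next one for Piwil2, Tdrd12, Mael, Tdrd1 and Morc1. For Tdrd9, Asz1, Pld6, Mov10l1 and Tdrkh it did not, so their highest group rests on the mean alone. No member had its lowest mean in XGFP+ PGCLCs, while ESCs held 4 of the lowest means, EpiLCs 3 and XGFP- PGCLCs 3.

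**Figure D1:**
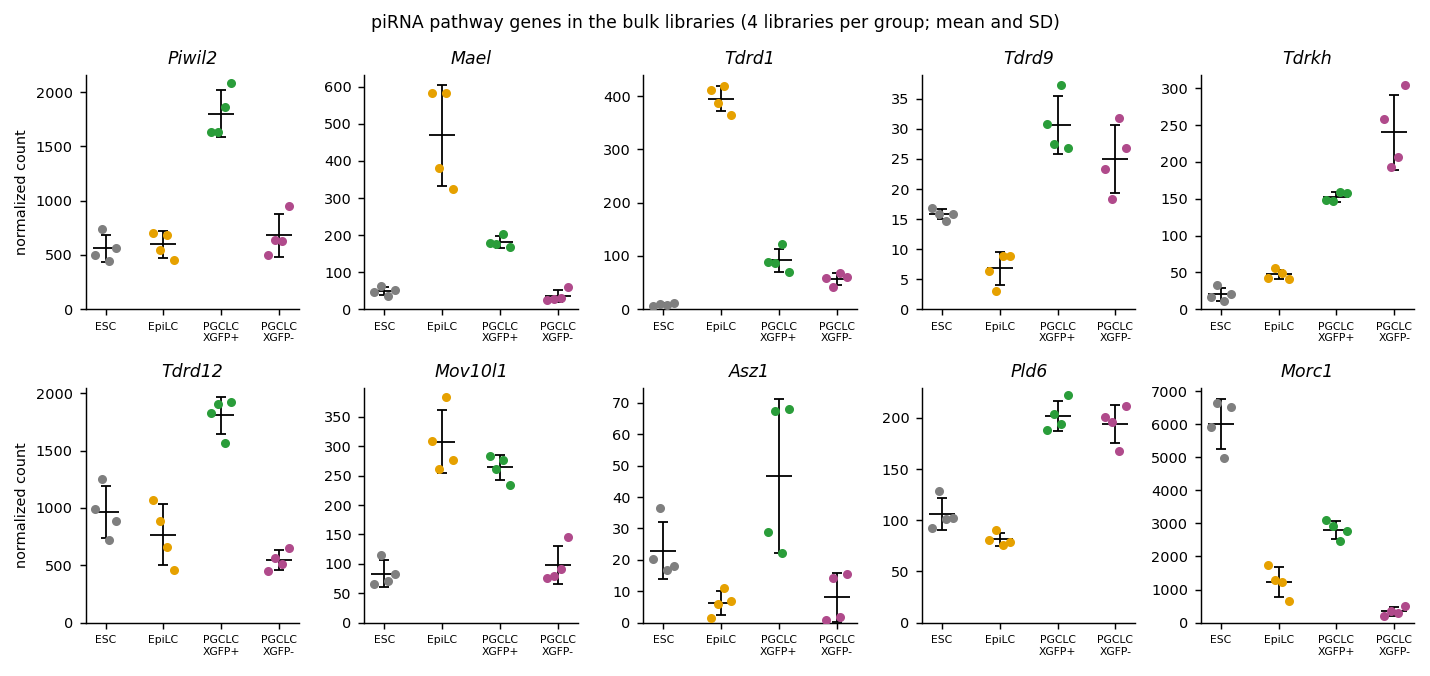
Normalized counts of the 10 piRNA pathway genes (y axes from 0, 1 panel per gene) in the 4 bulk groups. Points are the 4 libraries of a group and the black bars are mean and SD. Piwil2 stood highest in XGFP+ PGCLCs (1801), Mael in EpiLCs (469), Morc1 in ESCs (6022) and Tdrkh in XGFP- PGCLCs (241).

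Piwil2 (ENSMUSG00000033644, chr14:70372477-70429383, minus strand, mm10) encodes MILI, a PIWI protein that cuts transposon RNA and binds piRNAs in fetal germ cells. Its normalized counts were 499.5, 735.2, 444.8 and 564.5 in the ESC libraries and 705.7, 543.9, 684.6 and 450.3 in the EpiLC libraries. XGFP+ PGCLCs had 1629, 1633, 1863 and 2079, and XGFP- PGCLCs had 498.3, 637.0, 627.1 and 954.4. Thus ESCs, EpiLCs and XGFP- PGCLCs shared 1 range, and all 4 XGFP+ libraries lay above it. XGFP+ PGCLCs exceeded EpiLCs by 1.61 ± 0.18 (SE) on the log2 scale (adjusted p = 2.3e-07) and ESCs by 1.70 (adjusted p = 1.5e-07). XGFP- PGCLCs were below XGFP+ PGCLCs, with a log2 difference of -1.44 (adjusted p = 4.2e-06), and differed from EpiLCs by 0.17 (adjusted p = 0.40) and from ESCs by 0.26 (adjusted p = 0.20), neither of which passed the test. In these sorted bulk samples, fewer cells that express a gene and less RNA per cell cannot be told apart.

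Mov10l1 (ENSMUSG00000015365, chr15:88982909-89055152, plus strand) encodes the helicase that binds piRNA precursors. Library values were 65.11, 115.6, 70.45 and 82.58 in ESCs and 308.9, 262.1, 383.5 and 277.5 in EpiLCs. They were 282.9, 261.6, 277.6 and 233.8 in XGFP+ PGCLCs and 75.39, 79.25, 90.41 and 146.4 in XGFP- PGCLCs. Mov10l1 was therefore high in EpiLCs and XGFP+ PGCLCs, whose ranges overlapped, and low in the other 2 groups, whose ranges also overlapped. It rose from ESCs to EpiLCs by 1.89 ± 0.20 (SE) on the log2 scale (adjusted p = 1.3e-07). XGFP- PGCLCs were lower than EpiLCs (log2 difference -1.68, adjusted p = 4e-07) and lower than XGFP+ PGCLCs (-1.47, adjusted p = 9.7e-06).

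Pld6, Tdrkh and Asz1 encode proteins of the mitochondrial surface, where piRNA precursors are processed. Pld6 (ENSMUSG00000043648, chr11:59783897-59787645, minus strand), the mitochondrial phospholipase D family member that cuts precursors, was measured at 92.05, 128.5, 100.9 and 101.8 in ESCs and 80.79, 89.99, 75.51 and 79 in EpiLCs. Its XGFP+ PGCLC libraries had 188.6, 204.0, 194.3 and 222.1 and its XGFP- PGCLC libraries 201.0, 196.1, 167.4 and 211.3. Every PGCLC library was above every ESC and EpiLC library, and the ranges of the PGCLC sorts overlapped. Pld6 rose over EpiLCs by 1.30 ± 0.13 (SE) in XGFP+ PGCLCs (adjusted p = 2.3e-08) and by 1.24 in XGFP- PGCLCs (adjusted p = 3.7e-08). The log2 difference between the sorts was -0.06 ± 0.13 (SE), with an adjusted p of 0.71.

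Tdrkh (ENSMUSG00000041912, chr3:94413273-94434668, plus strand) encodes a Tudor protein that brings PIWI proteins to the trimming enzyme at mitochondria. Its counts were low in ESCs, at 16.84, 32.61, 11.57 and 20.36, and higher in EpiLCs, at 42.77, 55.38, 49.68 and 41.47. XGFP+ PGCLCs had 147.8, 146.4, 158.9 and 157.6, and XGFP- PGCLCs 258.2, 193.0, 206.8 and 304.1. The 4 groups thus formed an order without any overlap of neighbours, and Tdrkh was the one member with its highest level in XGFP- PGCLCs. Each step up to XGFP+ PGCLCs passed the test, with log2 differences of 1.26 ± 0.23 (SE) from ESCs to EpiLCs (adjusted p = 8.7e-05) and 1.68 from EpiLCs to XGFP+ PGCLCs (adjusted p = 2.6e-06). XGFP- PGCLCs were 3.57 above ESCs on the log2 scale (adjusted p = 7.2e-11). The difference of 0.63 between XGFP- and XGFP+ PGCLCs did not pass (adjusted p = 0.030), and with the replicate number as a block it passed in a fit of the PGCLC libraries alone (adjusted p = 0.00075) and not in the fit of all 16 libraries (adjusted p = 0.032). Tdrkh overlaps Oaz3 on the opposite strand, and the strand setting of the authors' counting is not given in the sources used here.

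Asz1 (ENSMUSG00000010796, chr6:18050964-18109061, minus strand), also called GASZ, is an adaptor that holds piRNA factors at mitochondria. Its ESC libraries had 20.21, 36.56, 16.82 and 18.1 normalized counts and its EpiLC libraries 1.58, 5.93, 10.93 and 6.91. The XGFP+ PGCLC libraries had 29.02, 67.59, 22.02 and 68.07, and the XGFP- PGCLC libraries 0.87, 14.22, 1.92 and 15.46. Asz1 split both sorts the same way, with libraries 2 and 4 high and libraries 1 and 3 low in XGFP+ and in XGFP- PGCLCs alike. Its rise from EpiLCs to XGFP+ PGCLCs was 2.73 ± 0.64 (SE) on the log2 scale (adjusted p = 0.00081), and this call was lost on leaving out any of 9 single libraries, with adjusted p between 0.0011 and 0.0041. These were ESC libraries 1, 3 and 4, EpiLC libraries 1, 2 and 4, and XGFP+ PGCLC libraries 1, 2 and 4. Asz1 was lower in XGFP- than in XGFP+ PGCLCs by a log2 difference of -2.81, with separate ranges and an adjusted p of 0.0014 that missed the threshold. With the replicate number as a block the same difference had an adjusted p of 0.00025 over all 16 libraries and of 2e-05 in the PGCLC libraries alone. Without the block, it passed on leaving out EpiLC library 1 (adjusted p = 0.00092) or XGFP- PGCLC library 2 (0.00067) or 4 (0.00043).

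The Tudor proteins that act beside the PIWI proteins, Tdrd1, Tdrd9 and Tdrd12, followed 3 different patterns. Tdrd1 (ENSMUSG00000025081, chr19:56826209-56870012, plus strand), which binds MILI, was nearly silent in ESCs at 5.61, 9.88, 7.36 and 12.44 normalized counts and reached 411.9, 386.7, 418.3 and 365.4 in EpiLCs. XGFP+ PGCLCs had 87.96, 87.61, 121.6 and 70.75, and XGFP- PGCLCs had 58.93, 41.66, 67.33 and 59.78. No ranges of any pair of groups overlapped, and EpiLCs were the highest. The rise from ESCs to EpiLCs was 5.38 ± 0.22 (SE) on the log2 scale (adjusted p = 1.8e-13), followed by a fall of -2.12 to XGFP+ PGCLCs (adjusted p = 6e-08) and of -2.79 to XGFP- PGCLCs (adjusted p = 9.9e-10). Both sorts still exceeded ESCs, by 3.27 (adjusted p = 2.3e-10) and 2.59 (adjusted p = 3.1e-09). The difference of -0.68 between XGFP- and XGFP+ PGCLCs did not pass (adjusted p = 0.015).

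Tdrd9 (ENSMUSG00000054003, chr12:111971559-112068854, plus strand), a Tudor domain helicase that works with the nuclear PIWI protein MIWI2, had the lowest level per kb of the members in XGFP+ PGCLCs. Library values were 16.84, 15.81, 14.72 and 15.84 in ESCs, and 6.34, 2.97, 8.94 and 8.89 in EpiLCs. XGFP+ PGCLCs had 30.83, 27.54, 37.33 and 26.87, and XGFP- PGCLCs 23.4, 18.29, 31.74 and 26.8. By their library ranges both PGCLC sorts lay above ESCs and ESCs above EpiLCs, and the sorts overlapped. The excess over ESCs did not pass the test in XGFP+ PGCLCs (0.90, adjusted p = 0.0081) or in XGFP- PGCLCs (0.61, adjusted p = 0.057). Tdrd9 rose from EpiLCs by 2.10 ± 0.28 (SE) in XGFP+ PGCLCs (adjusted p = 1.9e-06) and by 1.81 in XGFP- PGCLCs (adjusted p = 1e-05). Its drop from ESCs to EpiLCs, -1.20 (adjusted p = 0.00098), stood just inside the threshold and was lost on leaving out any single library other than EpiLC library 3 or 4, with adjusted p up to 0.0035.

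Tdrd12 (ENSMUSG00000030491, chr7:35469098-35537745, minus strand), a Tudor domain helicase needed to make secondary piRNAs, had 992.3, 1254, 720.3 and 882.4 normalized counts in ESCs and 1067, 888.0, 657.7 and 457.2 in EpiLCs. XGFP+ PGCLCs had 1827, 1904, 1570 and 1927, and XGFP- PGCLCs had 448.0, 558.8, 508.8 and 652.4. As for Piwil2, all 4 XGFP+ libraries stood above every other library. Tdrd12 rose from EpiLCs to XGFP+ PGCLCs by 1.30 ± 0.20 (SE) on the log2 scale (adjusted p = 1.3e-05) and was lower in XGFP- than in XGFP+ PGCLCs (-1.74, adjusted p = 1.6e-06). Its excess over ESCs in XGFP+ PGCLCs was 0.93 (adjusted p = 0.0005), and this call was lost on leaving out ESC library 1, 3 or 4 or XGFP+ PGCLC library 1, 2 or 4, with adjusted p between 0.0013 and 0.0026. The difference of -0.81 between XGFP- PGCLCs and ESCs missed the threshold (adjusted p = 0.0014) and passed on leaving out ESC library 3 (0.00059), EpiLC library 1 (0.00052) or EpiLC library 4 (0.00019).

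Mael and Morc1 act on the silencing of transposons itself. Mael (ENSMUSG00000040629, chr1:166201201-166238747, minus strand) encodes Maelstrom, a protein of the piRNA granules needed to keep transposons silent. It was measured at 46.02, 62.25, 35.75 and 52.04 in ESCs and at 583.8, 381.7, 584.2 and 324.9 in EpiLCs. XGFP+ PGCLCs had 179.6, 175.2, 202.9 and 167.5, and XGFP- PGCLCs 24.26, 27.43, 30.78 and 59.78. EpiLCs were highest, XGFP+ PGCLCs stood apart below them, and XGFP- PGCLCs overlapped ESCs. Mael rose by 3.21 ± 0.25 (SE) on the log2 scale from ESCs to EpiLCs (adjusted p = 1.7e-09). It then fell by 1.32 to XGFP+ PGCLCs (adjusted p = 0.00011) and by 3.73 to XGFP- PGCLCs (adjusted p = 1.2e-10). Between the sorts the log2 difference was -2.405 (adjusted p = 3.8e-07), and XGFP+ PGCLCs stood 1.89 above ESCs (adjusted p = 2.2e-06), while the difference of XGFP- PGCLCs from ESCs, -0.52, did not pass (adjusted p = 0.07).

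Morc1 (ENSMUSG00000022652, chr16:48431237-48630900, plus strand), an ATPase needed for transposon silencing in the male germ line, was the most abundant member in ESCs, with 5930, 6645, 4990 and 6524 normalized counts. EpiLCs had 1755, 1285, 1236 and 637.9, XGFP+ PGCLCs 3091, 2938, 2459 and 2760, and XGFP- PGCLCs 193.2, 350.5, 303.9 and 507.1. All 4 ranges were separate, in the order ESCs, XGFP+ PGCLCs, EpiLCs and XGFP- PGCLCs from high to low. Morc1 fell from ESCs to EpiLCs (-2.37 ± 0.26 (SE), adjusted p = 1.6e-07) and was higher again in XGFP+ PGCLCs (1.28 over EpiLCs, adjusted p = 0.00019). XGFP- PGCLCs were 8.74-fold below XGFP+ PGCLCs, a log2 difference of -3.13 (adjusted p = 2.3e-08), and -4.22 below ESCs (adjusted p = 3e-11). The log2 difference of XGFP+ PGCLCs from ESCs was -1.095 (adjusted p = 0.00093), which was lost on leaving out any single library except EpiLC library 1 or 4 or XGFP- PGCLC library 1 or 4, with adjusted p up to 0.0037.

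The comparison of XGFP- with XGFP+ PGCLCs asks how germ cells in which the reporter X was silenced at sorting differ from those in which it was active. None of the 10 members lies on the X. Of the 10, 5 were lower in XGFP- PGCLCs (Piwil2, Mael, Tdrd12, Mov10l1 and Morc1) and 0 higher, while 23.8% of all 16281 genes were called in either direction 12.5% lower and 11.3% higher. All 5 were more than 2-fold lower, as were 7.12% of all genes. Their fitted falls ran from 1.44 for Piwil2 to 3.13 for Morc1 on the log2 scale, and each kept its call when any 1 of the 16 libraries was left out. The median log2 difference over the 10 members was -1.46, against 0.01 over all genes tested. Tdrd1 and Asz1 lay lower and Tdrkh higher without passing, with separate ranges in all 3, and Tdrd9 and Pld6 had overlapping ranges. The DESeq2 test on the recovered reads called 8 members, where 31% of all genes were called, and the edgeR test called 5, where 24.4% were. DESeq2 added Tdrd1 (adjusted p = 0.00069), Asz1 (0.00018) and, as higher, Tdrkh (0.00075). With the replicate number as a block 6 members were called over all 16 libraries, where 25.6% of all genes were, and 7 in the PGCLC libraries alone, where 32.1% were, by the addition of Asz1 and, in the latter, Tdrkh.

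Other lists moved with the same sorts. Of 5 naive pluripotency markers, 4 were lower in XGFP- than in XGFP+ PGCLCs, their summed level was 43110 to 49800 normalized counts in XGFP+ and 24040 to 30620 in XGFP- libraries, and none was at 0. Of 5 meiotic markers 3 were lower and Rec8 higher, with sums of 1538 to 1930 against 772.2 to 859.7. Dazl, an RNA-binding protein of germ cells, fell from 4792 ± 2364 to 348 ± 312 normalized counts, while the summed level of the 7 germ cell markers was 27510 to 32760 in XGFP+ and 25600 to 27810 in XGFP- libraries. That sum includes Prdm1, Prdm14 and Tfap2c with the reads of their transgenes. The summed level of 5 markers of gonadal somatic cells was 50.73 to 90.12 against 60.81 to 72.79. The part of these differences in the levels of the members was not tested.

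The step from ESCs to EpiLCs called 6 of the 10 members, with 4 higher (Tdrd1, Mael, Mov10l1 and Tdrkh) and 2 lower (Morc1 and Tdrd9), where 47.8% of all genes were called, 24.9% higher and 22.9% lower. From EpiLCs to XGFP+ PGCLCs 9 members were called, 7 higher and 2 lower, against 57.3% of all genes in either direction, 27.8% higher and 29.5% lower. The same EpiLC libraries served for XGFP- PGCLCs, in which 7 members were called, 3 higher (Pld6, Tdrd9 and Tdrkh) and 4 lower (Mael, Tdrd1, Mov10l1 and Morc1), with 61.9% of all genes called, 29.9% higher and 31.9% lower. The median log2 differences of the members from EpiLCs were 1.30 in XGFP+ and -0.26 in XGFP- PGCLCs, against 0 and -0.03 over all genes. Set against ESCs, XGFP+ PGCLCs had 7 members higher and 1 lower (Morc1), where 49.9% of all genes were called, 25% higher and 24.9% lower. XGFP- PGCLCs had 3 members higher than ESCs (Tdrd1, Tdrkh and Pld6) and 1 lower (Morc1), against 59.4% of all genes called, 29.8% higher and 29.6% lower.

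**Figure D2:**
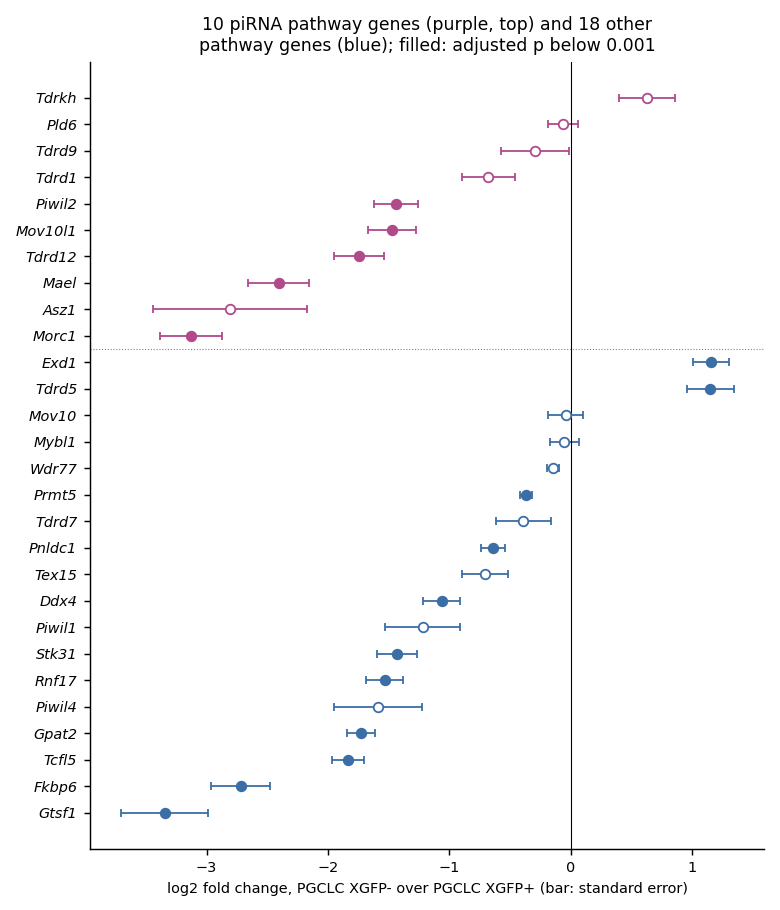
Log2 fold change between XGFP- and XGFP+ PGCLCs (x axis) for the 10 members (purple, top) and 18 other genes of the pathway (blue), with bars of 1 standard error and filled points where the adjusted p is below 0.001. Among the members 5 filled points lie left of 0 and none right of it. Among the other genes 9 filled points lie left of 0 and 2, Exd1 and Tdrd5, right of it.

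A list of 23 further genes of the pathway gave the surroundings of the members, and 18 of them were tested in bulk. In XGFP- against XGFP+ PGCLCs 9 of the 18 were lower and 2 higher (12.5% and 11.3% of all genes), with a median log2 difference of -0.88. The largest falls were in Gtsf1, a cofactor of PIWI proteins, from 36.4 ± 9.79 to 2.94 ± 1.90 normalized counts (log2 difference -3.35, adjusted p = 6.1e-07), and Fkbp6, a co-chaperone of piRNA loading, from 1100 ± 167 to 173 ± 64.2 (-2.72, adjusted p = 6.2e-08). Tcfl5, a transcription factor of spermatocytes, fell from 207 ± 10.8 to 58.1 ± 11.01 (-1.83, adjusted p = 5.1e-09), far below its 3301 ± 200 in EpiLCs. Gpat2, a mitochondrial partner of MILI, fell from 1617 ± 172 to 491 ± 91.8 (-1.73, adjusted p = 2.3e-09). The 2 genes that rose were Exd1, a partner of Tdrd12, from 247 ± 38.7 to 548 ± 37.3 (1.16, adjusted p = 4.3e-06), and Tdrd5, a Tudor protein of the chromatoid body, from 1804 ± 225 to 3989 ± 206 (1.15, adjusted p = 8.8e-05). Thus Tdrd12 and its partner Exd1 moved in opposite directions between the sorts.

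Of the other PIWI genes, Piwil4, which encodes the nuclear protein MIWI2, reached 44.9 ± 7.44 normalized counts in EpiLCs and stood at 4.61 ± 0.67 in XGFP+ and 0.99 ± 0.79 in XGFP- PGCLCs (log2 difference -1.59, adjusted p = 0.0015). Leaving out ESC library 2 or XGFP- PGCLC library 3 gave Piwil4 an adjusted p of 0.00091 or 0.00088. Piwil1, the PIWI gene of later spermatogenesis, was at 36.4 ± 9.79 in XGFP+ and 15.1 ± 4.49 in XGFP- PGCLCs (-1.22, adjusted p = 0.0031), and passed without EpiLC library 4 (0.00068). Ddx4, the germ cell helicase of the piRNA granules, had 179 ± 37.1 in ESCs and 532 ± 55.1 in EpiLCs, against 461 ± 40.1 and 224 ± 53.7 in XGFP+ and XGFP- PGCLCs, and its difference between the sorts of -1.06 passed (adjusted p = 1.9e-05). Mov10, the broadly expressed relative of Mov10l1, was at 9060 ± 909 in ESCs and 998 ± 319 in EpiLCs, against 13430 ± 474 and 13050 ± 147 in XGFP+ and XGFP- PGCLCs. The log2 difference of Mov10 between the sorts was -0.04 ± 0.15 (SE) (adjusted p = 0.84), while Mov10l1 differed by -1.47.

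Across the other 5 comparisons, which share libraries with one another, the same 18 genes were called as follows. EpiLCs had 6 higher and 6 lower than ESCs, where 47.8% of all genes were called, 24.9% higher and 22.9% lower. XGFP+ PGCLCs had 9 higher and 5 lower than EpiLCs (57.3%, with 27.8% higher and 29.5% lower). XGFP- PGCLCs had 5 higher and 9 lower than EpiLCs (61.9%, with 29.9% higher and 31.9% lower). Against ESCs, XGFP+ PGCLCs had 6 higher and 3 lower (49.9%, with 25% higher and 24.9% lower). XGFP- PGCLCs had 3 higher and 8 lower (59.4%, with 29.8% higher and 29.6% lower). The counts of both PGCLC sorts against ESCs, without regard to direction, lay close to the share over all genes. So did the count lower in XGFP+ and the count higher in XGFP- PGCLCs against EpiLCs.

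Pairs of members were compared over the 16 bulk libraries by Pearson's r on the log2 scale, as a description, since the points are 4 groups of libraries that share their cells of origin. Mael and Mov10l1 were most alike (r = 0.94), and Tdrd1 followed with r = 0.83 to Mov10l1 and 0.79 to Mael. Other close pairs were Tdrd9 with Pld6 (0.82), Tdrkh with Pld6 (0.82) and Piwil2 with Tdrd12 (0.80). The least alike were Tdrkh and Morc1 (-0.67) and Mael and Tdrd9 (-0.51). Among the other 16271 genes tested, the gene most like each member was Zfp951 for Piwil2 (r = 0.966), Sycp2 for Mov10l1 (0.959), Gstm6 for Pld6 (0.984) and Ppm1k for Tdrkh (0.987). For Asz1 it was Rp2 (0.903), for Tdrd1 Tsnax (0.988), for Tdrd9 Cnnm2 (0.958), for Tdrd12 Hat1 (0.927), for Mael Rapgef5 (0.976) and for Morc1 Abcb1a (0.992).

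Promoter sequences of RefSeq (GRCm38.p6, 250 bases before and 50 after the start site) were matched for 8 of the 10 members, with 12 windows of 300 bases in all. The windows of Mael, Mov10l1 and Tdrd1, the members that moved most alike in bulk, are shown 5′ to 3′ because each holds the letters CACGTG, an E-box read by basic helix-loop-helix factors, which is set in capitals. They are chr1:166238695-166238994 on the minus strand, chr15:88982744-88983043 on the plus strand and chr19:56825959-56826258 on the plus strand.
Mael: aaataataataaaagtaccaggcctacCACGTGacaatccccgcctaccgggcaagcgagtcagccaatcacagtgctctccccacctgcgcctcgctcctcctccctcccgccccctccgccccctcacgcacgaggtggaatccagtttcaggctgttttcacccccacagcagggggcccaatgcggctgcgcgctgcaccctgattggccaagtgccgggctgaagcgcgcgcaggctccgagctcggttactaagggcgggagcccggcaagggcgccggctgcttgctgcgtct
Mov10l1: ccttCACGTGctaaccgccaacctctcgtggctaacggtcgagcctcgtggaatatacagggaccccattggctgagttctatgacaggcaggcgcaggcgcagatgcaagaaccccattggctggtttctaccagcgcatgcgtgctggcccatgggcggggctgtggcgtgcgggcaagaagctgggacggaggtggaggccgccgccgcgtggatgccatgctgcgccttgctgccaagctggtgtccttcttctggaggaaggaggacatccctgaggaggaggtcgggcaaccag
Tdrd1: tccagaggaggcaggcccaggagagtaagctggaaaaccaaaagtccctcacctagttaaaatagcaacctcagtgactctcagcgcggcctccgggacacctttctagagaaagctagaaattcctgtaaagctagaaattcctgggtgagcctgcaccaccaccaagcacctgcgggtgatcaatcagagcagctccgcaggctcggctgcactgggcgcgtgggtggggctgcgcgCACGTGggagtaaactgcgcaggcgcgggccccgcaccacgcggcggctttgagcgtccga

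Counted from the start site of the window shown, the E-box begins at position -223 in Mael, -246 in Mov10l1 and -11 in Tdrd1. Counted from another start site of Tdrd1 the same E-box begins at -77, and a further Tdrd1 window holds none. The E-box is a palindrome, so 1 strand was searched for both. It was also found in Pld6 at -33 and in Tdrd9 at -165 and -95, so 5 of 8 genes (62.5%) hold it in some window, against 8.09% of all 27025 genes with a window and 11.8% of those with a window of at least 10 CpG. Of 16 other pathway genes with a window 5 held it (31.2%), which were Ddx4, Fkbp6, Piwil1, Stk31 and Wdr77. The letters GCGGGA of E2F-type sites, searched on both strands, were in 1 of 8 members (Mael, without overlap with its E-box), or 12.5%, in 7 of the 16 other genes (43.8%) and in 22% of all genes. Both motifs are matches of letters in 1 window per start site and are given as a description. The E-box was held by members with different bulk patterns, since Pld6 and Tdrd9 did not have their highest mean in EpiLCs as Mael, Mov10l1 and Tdrd1 did.

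In the rOvaries, 462 of 518 sorted cells passed the limits of the study on genes, reads and mitochondrial reads, which left 88 XGFP+ constitutive cells and 374 cells from XGFP- PGCLCs. Of these 374, 125 were XGFPhigh and the others were XGFPintermediate and XGFPlow cells, in nearly equal numbers after 16 and 15 had been left out. Each population is 1 sample, so no test was made between them, and the intervals given cover counting error only, since reads without molecular identifiers are not independent molecules. Median depth was 354100 reads in XGFP+ constitutive cells and 636600 to 645500 in the others. All 88 XGFP+ constitutive cells were sequenced in lane 2, whereas the other populations had 14 to 16 cells there and the rest in lane 3, so lane 2 values are given beside the comparisons. The 10 empty wells held no read of any member and at most 242 reads in all. Of 8 somatic gonad markers, the whole list summed to 10.9 CPM (reads of a gene per total reads, scaled to the same total in every cell or population) in XGFP+ constitutive, 5.03 in XGFPhigh, 312 in XGFPintermediate and 69.1 in XGFPlow cells, with 3, 1, 5 and 6 cells at 100 CPM or more, and in XGFP+ constitutive cells Foxl2, Col1a1, Col3a1 and Gata4 were at 0.

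Morc1 and Tdrd12 were the members most widely found in XGFP+ constitutive and XGFPhigh cells, and the others were found more widely in XGFPintermediate and XGFPlow cells or differed little. Reads of Morc1 were found in 94.3% of XGFP+ constitutive cells (exact 95% binomial interval 87.2% to 98.1%) and 92.8% of XGFPhigh cells (86.8% to 96.7%), but in 39.8% of XGFPintermediate (31.3% to 48.9%) and 36.4% of XGFPlow cells (27.8% to 45.6%). The median cell held 130.7 and 126.2 CPM of Morc1 in the first 2 populations and 0 in the other 2. Tdrd12 was found in 89.8%, 89.6%, 66.4% and 57.02% of cells in the same order. In 24 single ESCs of the series, which were sequenced in neither lane, Morc1 was found in 100% and Tdrd12 in 91.7% of cells.

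**Figure D3:**
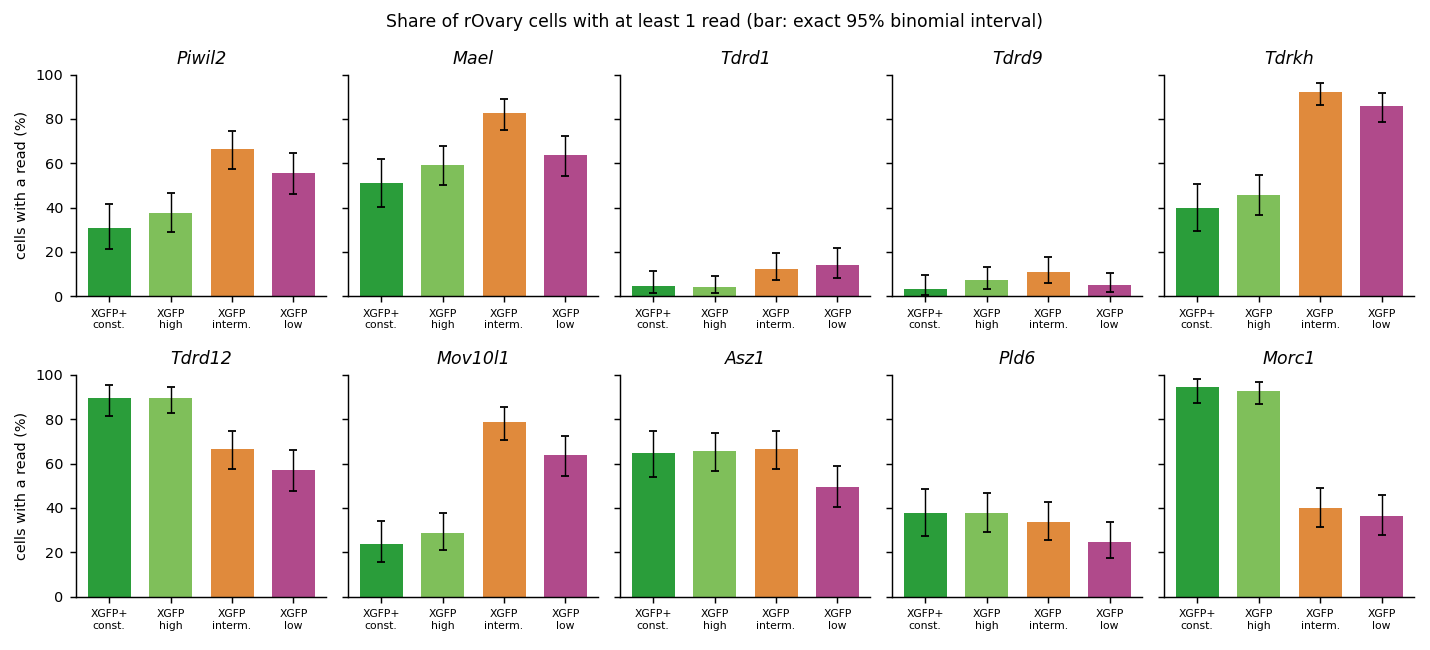
Share of cells with at least 1 read (y axes, 0 to 100%) for the 10 members in the 4 sorted rOvary populations, with exact 95% binomial intervals as bars. Morc1 stood at 94.3% and 92.8% in XGFP+ constitutive and XGFPhigh cells and at 39.8% and 36.4% in XGFPintermediate and XGFPlow cells, while Tdrkh stood at 39.8% and 45.6% against 92.2% and 85.9%.

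Tdrkh, Mov10l1 and Piwil2 showed the opposite arrangement, and Mael did so mainly in XGFPintermediate cells. Tdrkh was found in 39.8% of XGFP+ constitutive cells (29.5% to 50.8%), 45.6% of XGFPhigh (36.7% to 54.8%), 92.2% of XGFPintermediate (86.1% to 96.2%) and 85.9% of XGFPlow cells (78.5% to 91.6%). For Mov10l1 the shares were 23.9%, 28.8%, 78.9% and 63.6%, and for Piwil2 they were 30.7%, 37.6%, 66.4% and 55.4%. Mael was found in 51.1%, 59.2%, 82.8% and 63.6% of cells, so that its share in XGFPlow cells was near that in XGFPhigh cells. Of these 4, single ESCs had shares of 8.33% for Tdrkh, 20.8% for Mov10l1, 16.7% for Piwil2 and 12.5% for Mael at a median of 1104000 reads, all below every rOvary share. Thinned to 100000 reads per cell, which every rOvary cell held, the shares of Tdrkh were 37.5%, 43.2%, 90.6% and 83.5% and those of Piwil2 21.6%, 27.2%, 57.8% and 47.1%.

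The remaining members differed less. Asz1 was found in 64.8%, 65.6%, 66.4% and 49.6% of cells, and in 4.17% of single ESCs. Pld6 was found in 37.5%, 37.6%, 33.6% and 24.8% of cells, and in 37.5% of single ESCs. Tdrd1 was rare, at 4.55% and 4.00% in XGFP+ constitutive and XGFPhigh cells and 12.5% and 14.05% in XGFPintermediate and XGFPlow cells, with overlapping intervals between neighbours. Tdrd9 was found in 3.41%, 7.20%, 10.9% and 4.96% of cells. Neither Tdrd1 nor Tdrd9 had a read in the 24 ESCs, where a count of 0 allows a share of cells with a read of up to 12.5% (3 counts), and the exact interval reaches 14.25%. A cell held reads of a median of 4 members in XGFP+ constitutive and XGFPhigh cells, 6 in XGFPintermediate and 5 in XGFPlow cells, and of at most 9. Over the 10 members the median share was 38.6%, 41.6%, 66.4% and 52.5%, while over all genes it was 54.5%, 52.8%, 42.97% and 41.3%. In lane 2 alone the median share over members was 38.6%, 50%, 53.12% and 43.33%, so that XGFPlow cells fell below XGFPhigh cells, on 14 to 16 cells each. In lane 3 alone it was 41.9%, 66.96% and 52.8% in XGFPhigh, XGFPintermediate and XGFPlow cells.

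The summed reads of each population put sizes on these differences, for genes with a mean of at least 10 CPM in the 2 populations compared. From XGFPhigh to XGFPintermediate cells, 4 of 7 members were over 2-fold higher, where 10.6% of all genes were. Mov10l1 went from 18.4 to 96.8 CPM (5.26-fold), Piwil2 from 10.9 to 38.2 (3.50-fold), Tdrkh from 59.3 to 193 (3.26-fold) and Mael from 123.9 to 389 (3.14-fold). Over 2-fold lower were 2 of the 7, against 4.90% of all genes, namely Morc1 from 151 to 20.9 CPM (7.24-fold lower) and Tdrd12 from 114.8 to 54.03 (2.12-fold lower). In lane 2 alone, with 14 and 16 cells, the ratio of XGFPintermediate to XGFPhigh cells was 3.28 for Mov10l1, 2.77 for Piwil2, 1.96 for Tdrkh and 0.83 for Mael, so that the direction of Mael turned. A few cells carried much of the Mael and Tdrkh reads of XGFPhigh cells, since 5 cells held 57.99% of the Mael and 61.6% of the Tdrkh reads there. The Mael level of the median cell was 18.7 CPM in XGFPhigh and 277 in XGFPintermediate cells.

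XGFPlow cells, which lacked the reporter signal, were set against XGFPhigh cells of the same rOvaries and against XGFP+ constitutive cells. Against XGFPhigh cells 3 of 7 members were over 2-fold higher (Mov10l1 3.57-fold, Piwil2 2.55-fold and Tdrkh 2.08-fold), where 9.09% of all genes were, and 2 lower (Morc1 7.23-fold and Tdrd12 2.27-fold), where 3.86% were. Lane 2 alone gave ratios of XGFPlow to XGFPhigh cells of 5.87 for Mov10l1, 2.92 for Piwil2, 2.04 for Tdrkh, 0.496 for Tdrd12 and 0.0375 for Morc1. Against XGFP+ constitutive cells 4 of 7 were over 2-fold higher, with 7.87% of all genes, which were Tdrkh (6.80-fold), Piwil2 (4.03-fold), Mov10l1 (4.01-fold) and Mael (3.96-fold). Morc1 alone of the 7 was over 2-fold lower, from 149 to 20.9 CPM (7.11-fold), with 4.71% of all genes. Lane 2 alone gave ratios of XGFPlow to XGFP+ constitutive cells of 7.75 for Tdrkh, 5.18 for Mael, 3.395 for Mov10l1, 2.64 for Piwil2 and 0.0267 for Morc1, on 15 and 88 cells.

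XGFPhigh and XGFP+ constitutive cells, which both showed the reporter, differed less. Of 6 members 2 were over 2-fold higher in XGFPhigh cells, Tdrkh (3.27-fold) and Mael (2.51-fold), where 0.929% of all genes were, and none was lower (1.16% of all genes). Both had most of their XGFPhigh reads in 5 cells, as given above. Morc1 stood at 149 and 151 CPM and Tdrd12 at 82.9 and 114.8. In lane 2 alone the ratios of XGFPhigh to XGFP+ constitutive cells were 4.02 for Mael, 3.79 for Tdrkh, 1.63 for Tdrd12 and 0.711 for Morc1. That of Mov10l1 turned from 1.12 to 0.578.

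**Figure D4:**
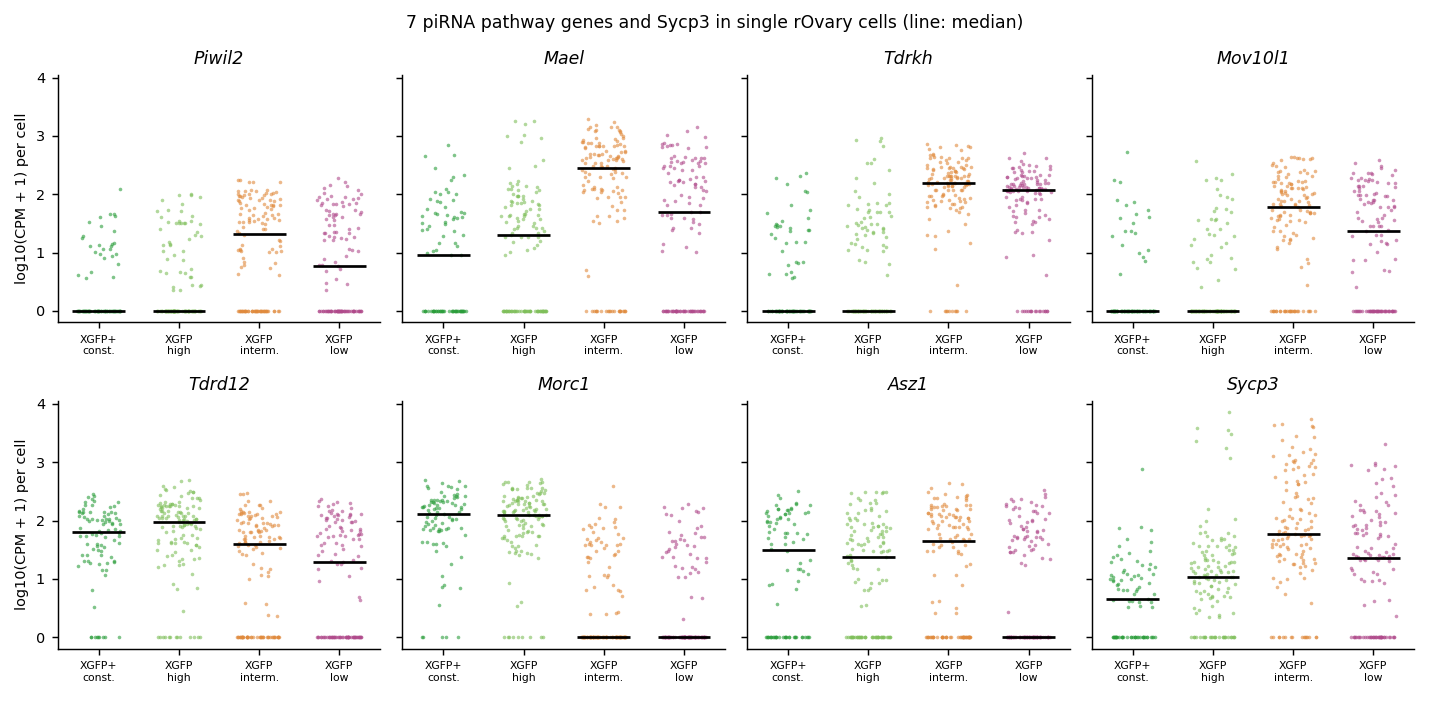
Level per cell, as log10(CPM + 1) on the y axes, of 7 members and of Sycp3, an axis protein of meiotic chromosomes, in the 4 rOvary populations. Points are cells and lines are medians. The median of Morc1 is at 0 in XGFPintermediate and XGFPlow cells, and that of Tdrkh is at 0 in XGFP+ constitutive and XGFPhigh cells.

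Sycp3 stood at 16.5, 204, 425 and 107.1 CPM in XGFP+ constitutive, XGFPhigh, XGFPintermediate and XGFPlow cells, and Dazl at 1968, 1692, 3107 and 2194 CPM. By summed reads Sycp3 was thus lower in XGFPlow than in XGFPhigh cells, where Mov10l1, Piwil2, Tdrkh and Mael were higher. Its direction depended on the measure, since the median cell held 21.8 CPM of Sycp3 in XGFPlow and 9.88 in XGFPhigh cells. In lane 2 alone the Sycp3 ratio of XGFPlow to XGFPhigh cells was 1.12, and that of XGFPintermediate to XGFPhigh cells turned from 2.08 to 0.465. Within XGFPintermediate cells the level of Mael rose with that of Sycp3, with a Spearman rho of 0.77 over all its cells within the limits, and within XGFPlow cells rho was 0.69. For Mov10l1 and Sycp3 rho was 0.56 in both populations, and for Tdrkh it was 0.61 and 0.35. For Morc1 and Sycp3 it was -0.03 and -0.06. These cells share a library preparation and their zeros come in part from low depth, so the values are a description. Ddx4, a pathway gene with much the same order as Mael, stood at 45.3, 106.2, 342 and 184 CPM.

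Cells with little Dazl weighed on the shares of XGFPlow cells. A natural-log normalized Dazl level above 1 was held by 76 of the 88 XGFP+ constitutive cells and by 91 XGFPlow cells. Among the latter the median share over members was 65.4%, in place of 52.5% over all XGFPlow cells. Outside the members, the median share over 18 other pathway genes was 80.7%, 74.4%, 72.3% and 67.4%. With at least 10 reads required per cell it was 40.3%, 57.2%, 62.1% and 58.3%, so the order of the populations depended on this limit. By summed reads 7 of 14 such genes were over 2-fold higher in XGFPintermediate than in XGFPhigh cells, where 10.6% of all genes were, and 1, Mov10, was lower, where 4.90% were. In lane 2 alone the ratios of these 7 were 3.53 for Tdrd7, 2.49 for Stk31, 1.87 for Fkbp6, 1.415 for Ddx4 and 1.09 for Exd1. Those of Gpat2 (0.881) and Tex15 (0.189) turned in direction, and that of Mov10 was 0.551.

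Side by side, the bulk PGCLCs and the rOvary populations that descend from them showed 3 kinds of members. Morc1 was lower in the sort with less GFP signal in both, with a bulk log2 difference of -3.13 and a 7.11-fold lower level in XGFPlow than in XGFP+ constitutive cells. Tdrd12 (bulk -1.74) and Asz1 (bulk -2.81, which did not pass) lay the same way, 1.64-fold and 1.25-fold lower in XGFPlow cells. In lane 2 alone the ratios of XGFPlow to XGFP+ constitutive cells were 0.807 for Tdrd12 and 0.992 for Asz1. The lower rOvary level of Asz1 was thus not seen within lane 2. Piwil2, Mael and Mov10l1 were lower in bulk XGFP- PGCLCs at day 5 but 3.96-fold to 4.03-fold higher in XGFPlow cells. Tdrkh was 6.80-fold higher in XGFPlow cells, and its bulk difference of 0.63 had the same sign without passing the test. XGFPhigh cells also came from XGFP- PGCLCs. Their ratios to XGFP+ constitutive cells were 3.27 for Tdrkh, 2.51 for Mael, 1.58 for Piwil2 (mean below 10 CPM) and 1.385 for Tdrd12. For Mov10l1, Morc1 and Asz1 they were 1.12, 1.02 and 0.868. The rOvary ratios rest on 1 sample each and the assays differ, so the difference between the stages was not tested.

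**Figure D5:**
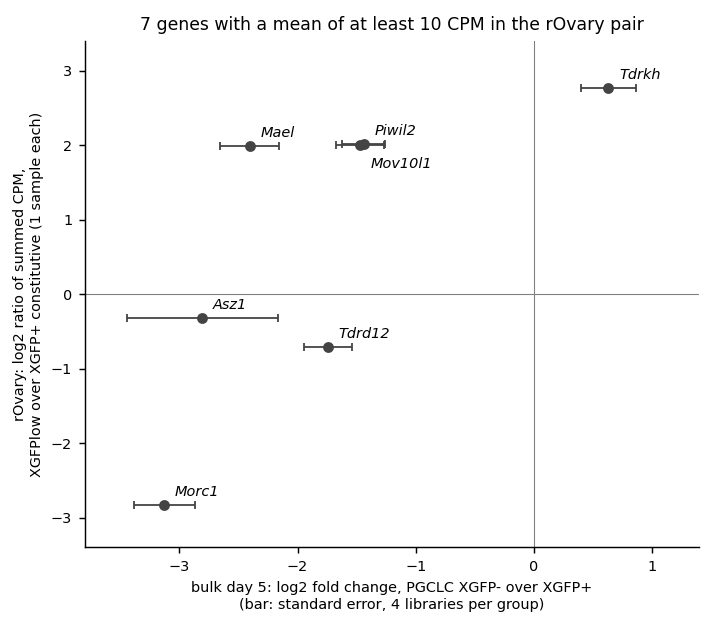
Bulk log2 fold change of XGFP- over XGFP+ PGCLCs (x axis, bars of 1 standard error, 4 libraries per group) against the log2 ratio of summed CPM of XGFPlow over XGFP+ constitutive rOvary cells (y axis, 1 sample each), for the 7 members with a mean of at least 10 CPM. Mael, Piwil2 and Mov10l1 lie left of 0 and above 0, Morc1, Tdrd12 and Asz1 left of 0 and below 0, and Tdrkh right of 0 and above 0.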

How the data were processed

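Bulk total RNA of 16 libraries (TruSeq Stranded Total RNA) and single-cell RNA of 518 rOvary cells, 24 ESCs and 10 empty wells were analysed. For bulk RNA the authors deposited a normalized signal, made by aligning reads with STAR to mm10, counting with HTSeq 0.6.1 and dividing each library by a DESeq2 1.16 size factor. All values were whole multiples of 1 read within 0.01, and these recovered reads served for the count tests. The single-cell values are read counts per gene deposited by the authors without scaling. The labels and the methods of the study differ on the single-cell kit (SMART-seq2 or SMART-Seq v5), the read length and the number of PGCLCs per rOvary, and this was not settled.

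Differences were tested with limma 3.58.1 (limma-trend, log2 of normalized count plus 1, genes with a mean above 10, 16 libraries in 1 model, two-sided, Benjamini-Hochberg over 16281 genes, threshold 0.001) in R 4.3.3. This log-scale test was the planned one, and edgeR 4.0.16 and DESeq2 1.42.0 on the recovered reads, other pseudocounts and filters, quantile normalization, the compared groups alone, a replicate block and the omission of each library were alternatives. On simulated data for XGFP- against XGFP+ PGCLCs, limma recovered 66% of 100 genes changed 2-fold and 98% of 100 changed 4-fold among 16281, with 0 false calls. The simulated libraries were drawn independently, so these values do not give the error rate for libraries that are technical replicates or pairs. Between the PGCLC sorts, deviations from the group means of same-numbered libraries correlated with r of 0.253, 0.135, 0.2 and 0.307 across genes. These numbers may therefore stand for pairs, as judged from the data and not from the labels. The main test used the group alone, so its p-values between the sorts are unpaired. Fits with the replicate number as a block are given beside it. Cells had to hold 4000 genes and 10000 reads or more, with mitochondrial reads of 5% or less. Wells received 1 cell each, and doublets were not called. Exact intervals are at 95%. Gene positions were taken from GENCODE vM21 (mm10). The members were given by name, the other pathway genes, markers and motifs were listed by known role, and among the former the 4 largest called rises and falls between the PGCLC sorts and Ddx4, Piwil1, Piwil4 and Mov10 were named (only 2 rises were called). Members and lists were chosen with earlier results of these data known. Allelic ratios were not used here.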

Additional observations from a re-analysis of the deposited data

Results flagged for a closer look

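Within the groups of 4 libraries, 0 of 40 sets of member values held a library far from the other 3, by the gap to the nearest library over the whole range. Among the other pathway genes 3 of 72 sets did, where chance marks about 1 in 20. Ddx4 was highest in EpiLC library 2, at 614.1 normalized counts. Tdrd5 was highest in ESC library 2, at 34.58. Mybl1, a transcription factor of spermatocytes, was lowest in EpiLC library 1, at 1377.0. None of these 3 libraries entered the difference between the PGCLC sorts other than through the shared estimate of the spread.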

How the results depend on the processing

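With the replicate number as a block over all 16 libraries, 6 members were called for EpiLCs against ESCs, where 49.6% of all genes were. Against EpiLCs 9 were called in XGFP+ PGCLCs (59.1% of all genes) and 7 in XGFP- PGCLCs (63.4%). Against ESCs the counts were 7 (51.8%) and 5 (61%), and between the sorts 6 (25.6%). Beside the calls given with Asz1 and Tdrkh, the block lost Morc1 in XGFP+ PGCLCs against ESCs (adjusted p = 0.0019) and gained Tdrd12 in XGFP- PGCLCs against ESCs (adjusted p = 0.00095), and it changed no other call of a member. For each pair of groups other than the sorts, at least 1 of the 4 same-numbered correlations was 0.1 or lower (range -0.01 to 0.16), so their numbers were not taken as pairs, although all 4 were above 0 for ESCs with EpiLCs and with XGFP- PGCLCs. Outside the omission of libraries, 606 of the log2 differences computed kept direction and side of the threshold, 12 lost and 12 gained the call and 5 turned. On omission of 1 library 1063 kept both, 41 lost and 9 gained the call and 7 turned. No difference that turned had been called. Asz1 in XGFP- PGCLCs against EpiLCs turned to 0.073 with a pseudocount of 10, 0.84 with quantile normalization, 0.36 with edgeR and 0.352 with DESeq2, and ran from -0.555 to 0.491 on omission of 1 library. Piwil2 ran from -0.013 (without ESC library 3) to 0.228 in EpiLCs against ESCs, and from -0.006 (without XGFP- library 4) to 0.306 in XGFP- PGCLCs against EpiLCs. Pld6 ran from -0.106 to 0.006 (without XGFP- library 3) between the sorts, and Mov10 turned to 0.032 with quantile normalization. DESeq2 called 8.0 members between the sorts, where 31% of all genes were called. Omission of 1 library moved the number of called members to 5 to 6 for EpiLCs against ESCs, 8 to 9 and 7 to 7 against EpiLCs, 6 to 8 and 4 to 5 against ESCs, and 5 to 6 between the sorts. With at least 10 reads required per cell, the median share over members was 17.05%, 28.4%, 55.08% and 43.39% in the order of the report. In lane 2 alone it was 50% in XGFPhigh, 53.12% in XGFPintermediate and 43.33% in XGFPlow cells, and with Dazl above 1 it was 65.38% in XGFPlow cells. The causes were not tested. The effect of depth on the bulk calls was not tested.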
